A study of Mus musculus with 23 samples.

Results

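Transcripts of skeletal muscle fibres, most of them fast-fibre isoforms, were examined in RNA from osteocyte-enriched cortical bone of mouse tibiae. The set was fixed by gene symbol as 10 genes, namely Acta1, Myh1, Myh4, Tnnt3, Tnni2, Tnnc2, Ckm, Mylpf, Actn3 and Mb, and any of them listed in either deposited count table was taken. Of the 10 genes, 6 were listed in at least 1 table, out of 16232 genes listed in either. Myh1, Tnnt3, Tnni2, Mylpf and Actn3 were listed in both tables and Acta1 only in the single-bout table, whereas Myh4, Tnnc2, Ckm and Mb had no row in the tables analysed here. Every member that was listed also passed the filter of more than 0.5 CPM (counts scaled to a fixed library total) in at least 4 libraries of the experiment.

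The bones came from WT male mice aged 5 months on the C57BL/6 background. The right tibia was loaded at 8.25 N, a sub-optimal load, and the left tibia was the nonloaded contralateral control, so that the nonloaded tibiae came from mice that were loaded on the other side. L-BAIBA, an amino acid metabolite released by contracting muscle, was given at 100 mg/kg in the drinking water, and vehicle-treated mice drank plain water. In the 2-week experiment, loading was applied in 3 bouts a week for 2 weeks, and there were 3 libraries each of L-BAIBA-treated loaded, L-BAIBA-treated nonloaded, vehicle-treated loaded and vehicle-treated nonloaded tibiae. In the single-bout experiment, L-BAIBA was given for 5 days before 1 bout of loading, and there were 3, 2, 3 and 3 libraries of the same groups in the same order. All tibiae were taken 24 hours after the last bout. RNA of 2 mice, from the same side, went into every library, and in several cases the right and left legs of 1 mouse pool gave a loaded and a nonloaded library.

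A skeletal muscle fibre contracts when myosin heads of the thick filament pull on actin thin filaments, and calcium switches this on through the troponin complex. Fast fibres use their own isoforms of nearly every part of this machinery, which makes these transcripts useful markers of muscle tissue. The tibia is wrapped in muscle that attaches to its outer surface. The tibial shafts in the study were cleaned of soft tissue, flushed of marrow and treated enzymatically before RNA isolation. The paper describes what remained as osteocyte-enriched, and marrow cell genes were still abundant in it, as given below.

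Acta1, Myh1 and Mylpf had both a listed count and a RefSeq promoter window (7 of the 10 genes had a window), and their sequences are given to show how far the promoters of genes of 1 tissue differ. Each window is 300 bases of GRCm38.p6, 250 before and 50 after the annotated start, written in the direction of the gene. Capitals mark E-boxes (CANNTG), the letters bound by myogenic basic helix-loop-helix factors, and the TATA motif TATAAA, on either strand. Acta1 is read from chr8:123894726-123895025 on the minus strand, Myh1 from chr11:67199852-67200151 and Mylpf from chr7:127211358-127211657 on the plus strand.
Acta1: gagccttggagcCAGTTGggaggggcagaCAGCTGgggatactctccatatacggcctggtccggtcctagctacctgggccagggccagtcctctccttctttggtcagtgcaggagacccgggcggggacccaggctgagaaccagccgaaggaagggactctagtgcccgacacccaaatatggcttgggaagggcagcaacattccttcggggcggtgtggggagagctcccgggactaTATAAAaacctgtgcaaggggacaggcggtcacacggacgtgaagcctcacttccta
Myh1: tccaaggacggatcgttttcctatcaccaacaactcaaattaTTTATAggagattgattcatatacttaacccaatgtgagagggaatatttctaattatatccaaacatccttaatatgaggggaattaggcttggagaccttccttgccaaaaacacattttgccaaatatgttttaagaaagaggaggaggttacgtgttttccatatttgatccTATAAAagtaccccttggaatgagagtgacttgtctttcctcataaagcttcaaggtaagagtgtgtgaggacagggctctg
Mylpf: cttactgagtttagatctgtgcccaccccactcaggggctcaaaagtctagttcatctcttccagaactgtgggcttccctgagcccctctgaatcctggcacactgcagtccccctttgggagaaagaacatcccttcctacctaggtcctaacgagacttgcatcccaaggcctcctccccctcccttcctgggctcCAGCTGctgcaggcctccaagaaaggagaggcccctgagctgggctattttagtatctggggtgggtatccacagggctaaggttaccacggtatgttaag

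The Acta1 window held 2 E-boxes, 1 of them of the CAGCTG form, together with 1 TATAAA, 1 CATTCC (the MCAT element) and 1 CArG box. The Mylpf window held 1 E-box, also CAGCTG, and none of the other motifs searched. The Myh1 window held no E-box, but 2 TATAAA, 1 CATTCC and 1 MEF2 site. In 32851 mouse windows of the same length, 72.3% held an E-box, 16.3% CAGCTG, 13.6% TATAAA, 14.7% CATTCC, 3.19% a MEF2 site and 1.63% a CArG box, each searched on both strands, and CAGCTG is itself an E-box. A match describes letters in the window and not a bound factor.

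The members lie on 4 chromosomes of mm10. Mylpf is at chr7:127211608-127214287 (plus strand), 155 bases from Sept1 on the opposite strand, and Actn3 at chr19:4861216-4877909 (minus strand), 304 bases from Ctsf on the opposite strand. Tnni2 at chr7:142442468-142444405 and Tnnt3 at chr7:142498836-142516009, both on the plus strand, lie on either side of Lsp1, a leukocyte gene at 234 CPM in the 2-week libraries and 319 CPM in the single-bout libraries. Myh1 is at chr11:67200114-67224575 on the plus strand, and the next listed gene of its myosin cluster was Myh8, 52549 bases away. Acta1 is at chr8:123891758-123894775 on the minus strand. Fragments were counted by strand over exons and only where they mapped to 1 place, and the fast myosin heavy chain genes are near-identical over parts of their length, so fragments shared by Myh1 with its paralogs may be missing from its count.

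Total gene counts ran between 6368289 and 18318951 in the 2-week libraries and between 17811949 and 37562527 in the single-bout libraries. The shallowest 2-week libraries were the loaded and the nonloaded tibiae of the same L-BAIBA-treated mice, L-BAIBA loaded 1 and L-BAIBA nonloaded 1. The libraries carried the defining genes of bone at high level: the 10 osteocyte genes, among them Dmp1, Mepe and Sost, summed to 5992 to 24563 CPM in the 2-week and 5166 to 18112 CPM in the single-bout libraries. Osteoblast genes (Col1a1, Col1a2 and Spp1 the highest) summed to 48321 CPM in single-bout L-BAIBA loaded 3, against 6679 and 8960 CPM in the other L-BAIBA-treated loaded libraries. Neutrophil genes were also abundant, at 13399 to 32531 CPM in the 2-week and 24490 to 77681 CPM in the single-bout libraries. In the single-bout libraries this lay wholly above the range of the osteocyte genes.

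Against this background the fibre transcripts were rare. The listed members together had 56 to 229 counts per 2-week library and 190 to 433 counts per single-bout library. Their summed level, in CPM scaled by TMM (trimmed mean of M values), was 7.90 to 16.9 in the 2-week libraries (5 members) and 6.90 to 12.7 in the single-bout libraries (6 members). The highest 2-week library, L-BAIBA nonloaded 1, was 2.13-fold above the lowest, vehicle loaded 1 (95% interval 1.65 to 2.76). The highest single-bout library, vehicle loaded 3, was 1.84-fold above the lowest, L-BAIBA loaded 3 (95% interval 1.56 to 2.17). The intervals cover counting error only, and the pairs were picked as the extremes. In bulk RNA, fewer cells of a type and less RNA per cell cannot be told apart.

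**Figure D1:**
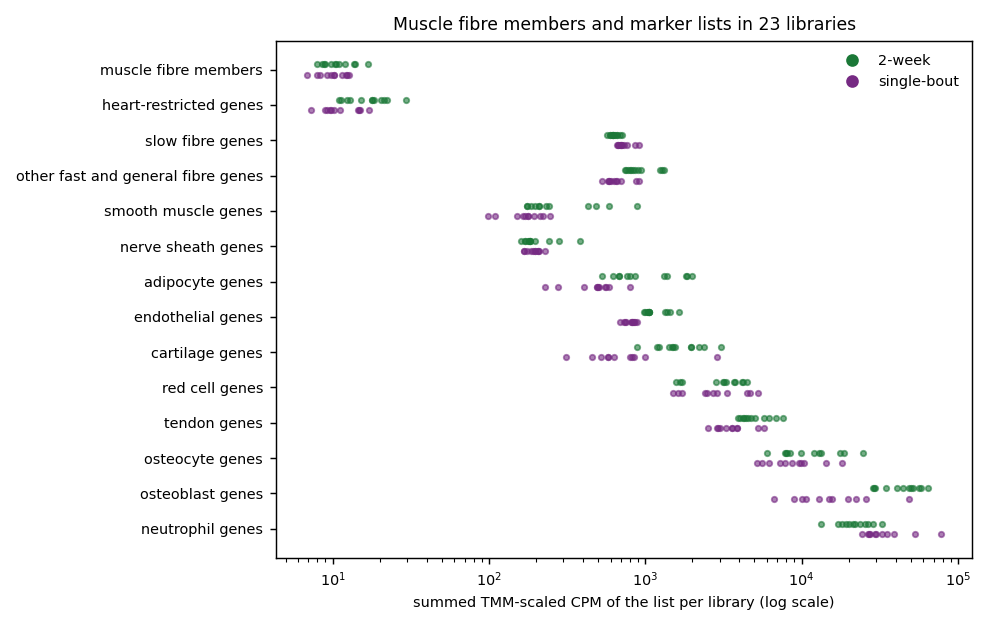
Summed TMM-scaled CPM (log axis) of the fibre members and of marker lists, 1 point for each of 12 2-week and 11 single-bout libraries. The fibre members lie between 6.90 and 16.9 CPM in every library, far to the left of the osteocyte, osteoblast and neutrophil genes.

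In the summed level of the listed members by group, the 2-week L-BAIBA-treated loaded libraries had 8.93, 10.5 and 11.02 CPM. The L-BAIBA-treated nonloaded libraries had 16.9, 9.77 and 8.77 CPM. Vehicle-treated loaded tibiae had 7.90, 8.61 and 10.4 CPM, against 13.99, 13.7 and 11.95 CPM in vehicle-treated nonloaded tibiae. Both loaded groups lay below the vehicle-treated nonloaded tibiae without overlap. In the single-bout experiment, L-BAIBA-treated loaded tibiae had 9.79, 7.93 and 6.90 CPM and L-BAIBA-treated nonloaded tibiae 8.34 and 9.27 CPM. Vehicle-treated loaded tibiae had 10.2, 12.1 and 12.7 CPM and vehicle-treated nonloaded tibiae 11.5, 10.2 and 12.4 CPM. Every L-BAIBA-treated library of this experiment lay below every vehicle-treated library. The sums were not tested, and no share over all genes is available for them. These sums were carried largely by Mylpf. It made up 42.7% to 65.9% of the member counts of a 2-week library and 38.9% to 63.0% of a single-bout library. Mylpf had a Pearson r of 0.54 and 0.95 with the mean log2 level of red cell genes, in the 2-week and single-bout libraries. With the other fast fibre genes listed it was -0.42 and -0.04. The sums are therefore given as transcript levels, and muscle fibre content was not measured.

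Mylpf encodes the regulatory light chain of fast skeletal myosin. It averaged 6.33 CPM over the 2-week and 5.30 CPM over the single-bout libraries, more than 28.2% of the 15576 genes tested in the 2-week and more than 26.6% of the 15500 genes tested in the single-bout experiment. Per kilobase of exon, the scale on which genes can be set side by side, Mylpf had 8.38 CPM per kb in the 2-week and 7.02 CPM per kb in the single-bout libraries. It was the highest member in both experiments, and its lowest library (4.86 and 3.79 CPM per kb) was above the highest library of the next member, Tnni2 (3.82 and 2.29 CPM per kb).

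The troponin genes came next on this scale. Tnni2 encodes fast troponin I, which holds the thin filament off, and Tnnt3 encodes fast troponin T, which ties the complex to tropomyosin. Tnni2 averaged 1.69 and 1.54 CPM per kb and Tnnt3 0.935 and 1.28 CPM per kb in the 2-week and single-bout libraries, with overlapping ranges. Tnnc2, the calcium-binding subunit, had no row, so the complex was listed only in part. Actn3, the alpha-actinin of fast-fibre Z-discs, averaged 0.628 and 0.379 CPM per kb. Its range overlapped that of Tnnt3 in the 2-week libraries but lay below it in the single-bout libraries, where the highest Actn3 value was 0.583 and the lowest Tnnt3 value 0.864 CPM per kb.

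Acta1 and Myh1 were lowest. Acta1, the skeletal alpha-actin of the thin filament and one of the most abundant transcripts of muscle tissue, averaged 0.315 CPM per kb in the single-bout libraries, where its counts were 7 to 19. Myh1, the fast type 2X myosin heavy chain, averaged 0.119 and 0.128 CPM per kb, from 1 to 18 counts in the 2-week and 4 to 39 counts in the single-bout libraries. Ckm (muscle creatine kinase), Mb (myoglobin) and Myh4 (type 2B myosin heavy chain) are likewise abundant in skeletal muscle and had no row.

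Myh1 also varied most between libraries. Its highest over lowest level was 43.6-fold in the 2-week libraries (2.66 CPM in L-BAIBA nonloaded 1 and 0.0611 CPM, a single count, in vehicle nonloaded 1) and 16.3-fold in the single-bout libraries. Its coefficient of variation was 103% and 68.1%, where counting error alone gives 38.7% and 22.8%. Mylpf varied 2.51-fold and 2.80-fold, with a coefficient of variation of 25.7% and 33.6% against 11.6% and 8.26% from counting. Acta1 varied by 19.9%, less than the 26.9% that counting gives, so its libraries could not be told apart at this depth. For Tnnt3 the single-bout value was 20.7% against 15.97% from counting, and in the 2-week libraries it was 53.8% against 28.2%, the lowest library being L-BAIBA loaded 1 with 1 count.

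**Figure D2:**
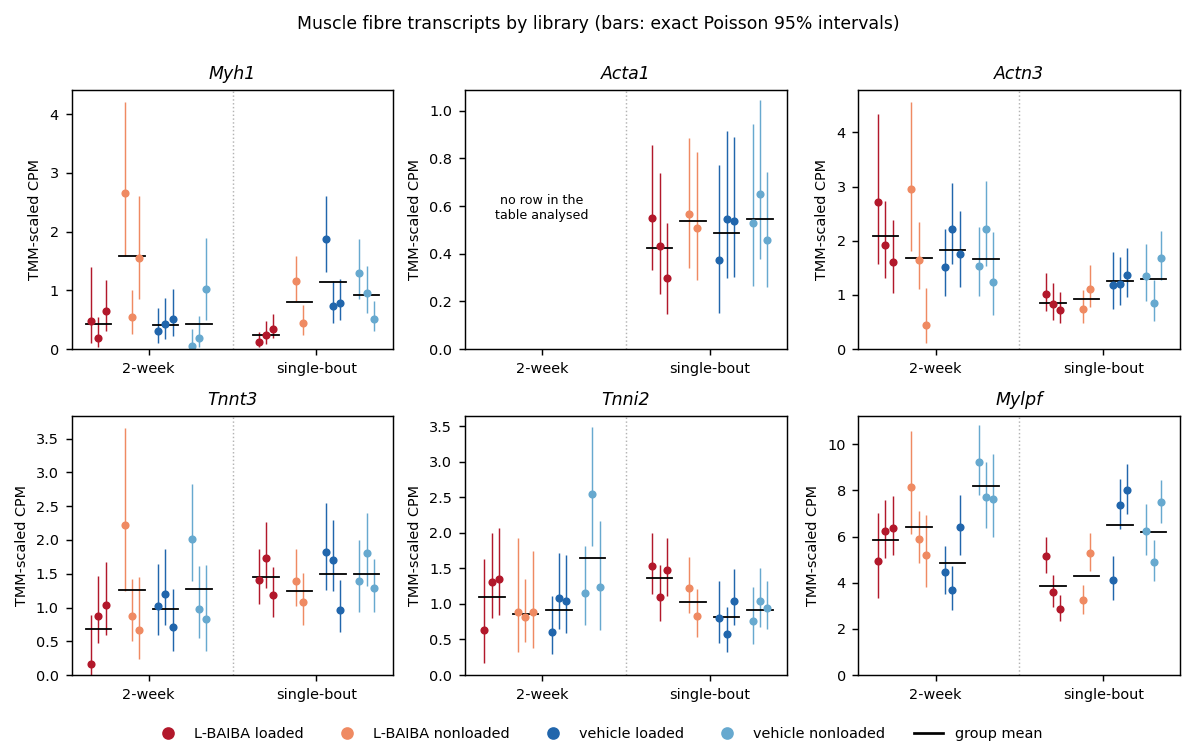
TMM-scaled CPM of each listed member in each library, by group, in the 2-week and the single-bout experiment. Mylpf lies between 2.86 and 9.22 CPM in all libraries, and Myh1 spreads over the widest range.

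Across the 15 comparisons (6 within each experiment and 3 between them), no member had an adjusted p under 0.05 by edgeR's quasi-likelihood test with Benjamini-Hochberg adjustment over all genes tested. The same test called 0% of all genes in each of these comparisons. The values that follow are therefore differences that did not pass it. The members have fewer counts than most genes, and their intervals are wide.

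The first comparison concerned 2 weeks of loading without L-BAIBA. Mylpf had 4.46, 3.67 and 6.42 CPM in vehicle-treated loaded tibiae, against 9.22, 7.71 and 7.62 CPM in vehicle-treated nonloaded tibiae. Every loaded library was below every nonloaded one, with a log2 fold change of -0.76 (SE 0.26, 95% interval -1.31 to -0.20, edgeR adjusted p = 0.475). Tnni2 had 0.603, 1.08 and 1.04 CPM in loaded tibiae, against 1.16, 2.55 and 1.24 CPM in nonloaded tibiae. These did not overlap either (log2 fold change -0.86, SE 0.49, edgeR adjusted p = 0.542). Of the 5 members, 2 thus lay lower without overlap, and 9.74% of all genes did so, with 8.08% higher without overlap. At an unadjusted p under 0.05 the test counted 1 member, Mylpf, and 10.2% of all genes. The other members overlapped, with log2 fold changes of -0.39 for Tnnt3, 0.13 for Actn3 and 0.09 for Myh1, and the median over the members was -0.39 against 0.01 over all genes.

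The summed levels of red cell and neutrophil genes lay in the same direction in these libraries. Those of B-lineage precursor genes did not, at a median of 840 CPM in loaded and 515 CPM in nonloaded vehicle-treated tibiae, with overlap. Red cell genes (Slc4a1, Alas2 and Klf1, the 3 listed of 9) summed to 1714 to 3136 CPM in vehicle-treated loaded tibiae, against 3694 to 4469 CPM in vehicle-treated nonloaded tibiae, without overlap. Neutrophil genes (10 of 10 listed) summed to 13399 to 21271 CPM in loaded tibiae, against 20160 to 32531 CPM in nonloaded tibiae, with overlap. Their part in the Mylpf values was not tested.

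The second comparison concerned 2 weeks of L-BAIBA without loading. Myh1 had 2.66, 0.546 and 1.55 CPM in L-BAIBA-treated nonloaded tibiae, against 0.0611, 0.196 and 1.03 CPM in vehicle-treated nonloaded tibiae. The groups overlapped, and the log2 fold change of 1.95 (SE 0.89, 95% interval 0.02 to 3.88) had an edgeR adjusted p of 0.536. It rested on 18, 10 and 14 counts against 1, 3 and 10, and leaving out 1 library moved it to between 1.37 (without L-BAIBA nonloaded 1) and 3.52 (without vehicle nonloaded 3, unadjusted p = 0.00297 and adjusted p = 0.353 by edgeR). Tnni2 had 0.888, 0.819 and 0.888 CPM in L-BAIBA-treated tibiae, against 1.16, 2.55 and 1.24 CPM in vehicle-treated tibiae, with no overlap (log2 fold change -0.94, SE 0.51, edgeR adjusted p = 0.550). No overlap in this direction was found for 1 of 5 members and for 9.46% of all genes (8.08% lay higher without overlap), and an unadjusted p under 0.05 for 1 of 5 members, Myh1, and for 9.23% of all genes. The median over the members was -0.10, against -0.0046 over all genes. The share of counts in genes under 2 CPM, which is a trait of the library, was 0.431%, 0.212% and 0.278% in the L-BAIBA-treated nonloaded libraries and 0.179%, 0.185% and 0.254% in the vehicle-treated nonloaded ones, and its part in the Myh1 values was not tested.

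With 2 weeks of loading and L-BAIBA together, Mylpf had 4.94, 6.22 and 6.38 CPM in L-BAIBA-treated loaded tibiae, again below all vehicle-treated nonloaded libraries (log2 fold change -0.47, SE 0.26, edgeR adjusted p = 1.00). This was 1 of 5 members without overlap, against 4.24% of all genes lower and 3.12% higher without overlap, and no member and 1.88% of all genes had an unadjusted p under 0.05. Between L-BAIBA-treated loaded and vehicle-treated loaded tibiae every member overlapped, with log2 fold changes between -0.40 (Tnnt3) and 0.32 (Tnni2), and 0 members and 1.5% of all genes had an unadjusted p under 0.05. Without overlap lay 3.49% of all genes higher and 4.33% lower. Between L-BAIBA-treated loaded and L-BAIBA-treated nonloaded tibiae the members also overlapped, and the furthest from 0 was Myh1 (log2 fold change -1.80, SE 0.89, edgeR adjusted p = 1.00, and -1.21 without L-BAIBA nonloaded 1). There, too, no member had an unadjusted p under 0.05, against 1.68% of all genes, and 2.34% of all genes lay higher and 2.87% lower without overlap.

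In the single-bout experiment, loading alone separated no member's groups. Mylpf had 4.13, 7.35 and 8.002 CPM in vehicle-treated loaded tibiae and 6.23, 4.91 and 7.48 CPM in vehicle-treated nonloaded tibiae. All 6 members overlapped between these groups, with log2 fold changes between -0.18 (Tnni2) and 0.30 (Myh1). None had an unadjusted p under 0.05 by edgeR, and 1.19% of all genes did, while 3.78% of all genes lay higher and 2.25% lower without overlap. With L-BAIBA alone, the members again overlapped, with log2 fold changes between -0.54 (Mylpf) and 0.16 (Tnni2), no member and 3.68% of all genes having an unadjusted p under 0.05, and 13.2% of all genes lying higher and 9.61% lower without overlap.

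The furthest values from 0 were those of Myh1 when a single bout was combined with L-BAIBA. Myh1 had 0.115, 0.233 and 0.351 CPM (4, 7 and 13 counts) in L-BAIBA-treated loaded tibiae, against 1.88, 0.739 and 0.789 CPM (35, 19 and 22 counts) in vehicle-treated loaded tibiae. The groups did not overlap, and the log2 fold change was -2.23 (SE 0.61, 95% interval -3.58 to -0.88, edgeR adjusted p = 0.170). This call depended on the test: DESeq2 gave an adjusted p of 0.0239 and edgeR's likelihood ratio test 0.0198, and these called 5.59% and 3.83% of all genes in this comparison. Without each library in turn, the edgeR quasi-likelihood adjusted p was over 0.05 each time, with log2 fold changes between -2.67 (without L-BAIBA loaded 3, the library with the high osteoblast genes) and -1.64 (without vehicle loaded 1, the library with the highest Myh1 level).

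Other members differed between the same groups by less. Tnni2 had 1.53, 1.10 and 1.48 CPM in L-BAIBA-treated loaded tibiae, against 0.805, 0.583 and 1.04 CPM in vehicle-treated loaded tibiae, without overlap (log2 fold change 0.76, SE 0.32, edgeR adjusted p = 0.239). Mylpf had 5.17, 3.60 and 2.86 CPM in L-BAIBA-treated loaded tibiae, against 4.13, 7.35 and 8.002 CPM in vehicle-treated loaded tibiae, with overlap (log2 fold change -0.75, SE 0.32, edgeR adjusted p = 0.237, and -0.57 without L-BAIBA loaded 3). Tnni2 was thus higher and Mylpf lower with L-BAIBA, although both are parts of the same fast-fibre machinery. Actn3 had 1.01, 0.833 and 0.728 CPM in L-BAIBA-treated loaded tibiae, against 1.18, 1.21 and 1.36 CPM in vehicle-treated loaded tibiae, without overlap (log2 fold change -0.55, SE 0.33, edgeR adjusted p = 0.388). Tnnt3 and Acta1 overlapped, at -0.05 and -0.21. Acta1 had 0.549, 0.433 and 0.297 CPM in L-BAIBA-treated loaded tibiae, against 0.376, 0.544 and 0.538 CPM in vehicle-treated loaded tibiae. Tnnt3 had 1.41, 1.73 and 1.19 CPM in L-BAIBA-treated loaded tibiae, against 1.82, 1.71 and 0.969 CPM in vehicle-treated loaded tibiae. Counting all 6 members, 1 lay higher and 2 lower without overlap, where 10.2% of all genes lay higher and 10.9% lower, and 3 had an unadjusted p under 0.05, where 18.9% of all genes did. The median over the members was -0.38, against -0.04 over all genes.

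Compared with vehicle-treated nonloaded tibiae (1.29, 0.958 and 0.514 CPM), the Myh1 values of L-BAIBA-treated loaded tibiae were again lower without overlap (log2 fold change -1.93, SE 0.61, edgeR adjusted p = 0.238). Tnni2 was higher without overlap (0.58, SE 0.31, edgeR adjusted p = 0.367). That was 1 of 6 members lower and 1 of 6 higher, with 12.9% and 9.11% of all genes, and 1 member, Myh1, with an unadjusted p under 0.05, as had 16.7% of all genes. Against L-BAIBA-treated nonloaded tibiae (1.16 and 0.444 CPM), Myh1 in L-BAIBA-treated loaded tibiae also did not overlap (log2 fold change -1.76, SE 0.66, edgeR adjusted p = 1.00). Without L-BAIBA nonloaded 1, which leaves 1 library in that group, assumed to vary like the others, it was -0.91. This was 1 of 6 members and 9.58% of all genes lower without overlap (3.72% lay higher), and 1 member and 3.44% of all genes at an unadjusted p under 0.05. These comparisons share the 3 L-BAIBA-treated loaded libraries and are not independent of each other.

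The Myh1 values moved with a trait of the library. Genes under 2 CPM took 0.194%, 0.180% and 0.221% of all counts in the single-bout L-BAIBA-treated loaded libraries, against 0.366%, 0.266% and 0.226% in the vehicle-treated loaded libraries, without overlap. Over the 11 single-bout libraries Myh1 and this share had a Pearson r of 0.88, and over the 12 2-week libraries 0.81. The points share their library and its depth, and the members are left out of the 2596 and 2546 genes of the share. The r for Mylpf was 0.01 and 0.04, and for Tnni2 -0.53 and -0.44. Total gene counts did not overlap between the L-BAIBA-treated loaded (34130839, 32779499 and 37562527) and the vehicle-treated loaded libraries (17811949, 25117083 and 28352670). Depth and treatment thus cannot be told apart in this comparison. Neutrophil genes also did not overlap between these groups, at 32916 to 77681 CPM in L-BAIBA-treated loaded and 24490 to 27451 CPM in vehicle-treated loaded tibiae. Myh1 also varied with 2 muscle gene lists, in the single-bout and 2-week libraries. Its r was 0.85 and 0.83 with the mean log2 level of the satellite cell and myogenic regulator genes. With the heart-restricted genes it was 0.83 and 0.79. The single genes most like Myh1 had a higher r than these lists, as given below. The part of depth, of the share in genes under 2 CPM, of these lists and of the neutrophil genes in the members' values was not tested.

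**Figure D3:**
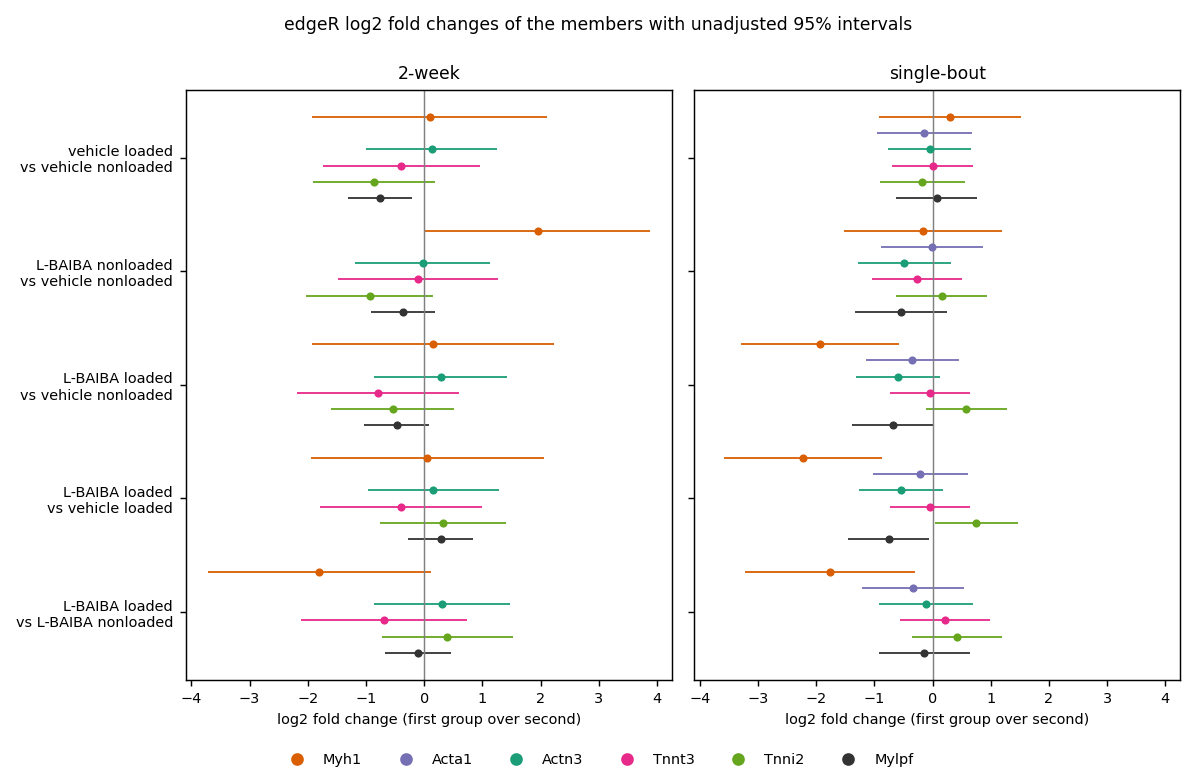
Log2 fold change of each listed member in the 5 pairwise comparisons of each experiment, with the 95% interval of edgeR's quasi-likelihood fit. The interval of Myh1 in single-bout L-BAIBA-treated loaded against vehicle-treated loaded tibiae (-3.58 to -0.88) lies below 0, and no member passed an adjusted p of 0.05.

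The libraries that share mice allow the right and left legs to be set side by side. In the 2-week experiment, Myh1 had 0.478, 0.187 and 0.644 CPM in the loaded tibiae of the 3 pools of L-BAIBA-treated mice, against 2.66, 0.546 and 1.55 CPM in the nonloaded tibiae of the same pools. In the vehicle-treated pools with both legs, Myh1 had 0.302 and 0.519 CPM in loaded tibiae, against 0.0611 and 0.196 CPM in nonloaded tibiae. Myh1 was thus lower in the loaded leg of each L-BAIBA-treated pool and higher in the loaded leg of each vehicle-treated pool. How many of all genes split by direction in this way was not computed. In every one of these pools the share of counts in genes under 2 CPM lay in the same direction as Myh1. It was 0.318%, 0.193% and 0.212% in the loaded and 0.431%, 0.212% and 0.278% in the nonloaded legs of the L-BAIBA-treated pools, and 0.2205% and 0.251% in the loaded and 0.179% and 0.185% in the nonloaded legs of the vehicle-treated pools. Its part in the Myh1 values was not tested. The edgeR interaction of loading and L-BAIBA for Myh1 was -1.89 (SE 1.29, edgeR adjusted p = 0.725). Leaving out each library in turn moved it to between -3.45 (without vehicle nonloaded 3) and -1.32. No member had an unadjusted p under 0.05 for the interaction, and 6.6% of all genes did.

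The single-bout pools had the same directions for Myh1. The loaded tibiae of the L-BAIBA-treated pools had 0.233 and 0.351 CPM, against 1.16 and 0.444 CPM in the nonloaded tibiae of the same pools. The loaded tibiae of the vehicle-treated pools had 1.88 and 0.739 CPM, against 0.958 and 0.514 CPM in the nonloaded tibiae. The share of counts in genes under 2 CPM again lay in the direction of Myh1 in each pool, at 0.180% and 0.221% in the loaded and 0.269% and 0.241% in the nonloaded legs with L-BAIBA, and at 0.366% and 0.266% in the loaded and 0.287% and 0.210% in the nonloaded legs with vehicle. The interaction was -2.06 (SE 0.86, 95% interval -3.96 to -0.16, edgeR adjusted p = 1.00), 1 of 6 members at an unadjusted p under 0.05 with 2.01% of all genes. It was -1.21 without L-BAIBA nonloaded 1 and -1.44 without vehicle loaded 1. The other members did not separate in this way in both experiments. Tnni2 was lower in the loaded leg of all 4 vehicle-treated pools, with log2 differences of -0.80 and -1.19 after 2 weeks and -0.34 and -0.63 after a single bout. Mylpf was lower in the loaded leg of both vehicle-treated pools in each experiment, with log2 differences between -1.02 and -0.03, and both genes went in both directions among the L-BAIBA-treated pools.

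**Figure D4:**
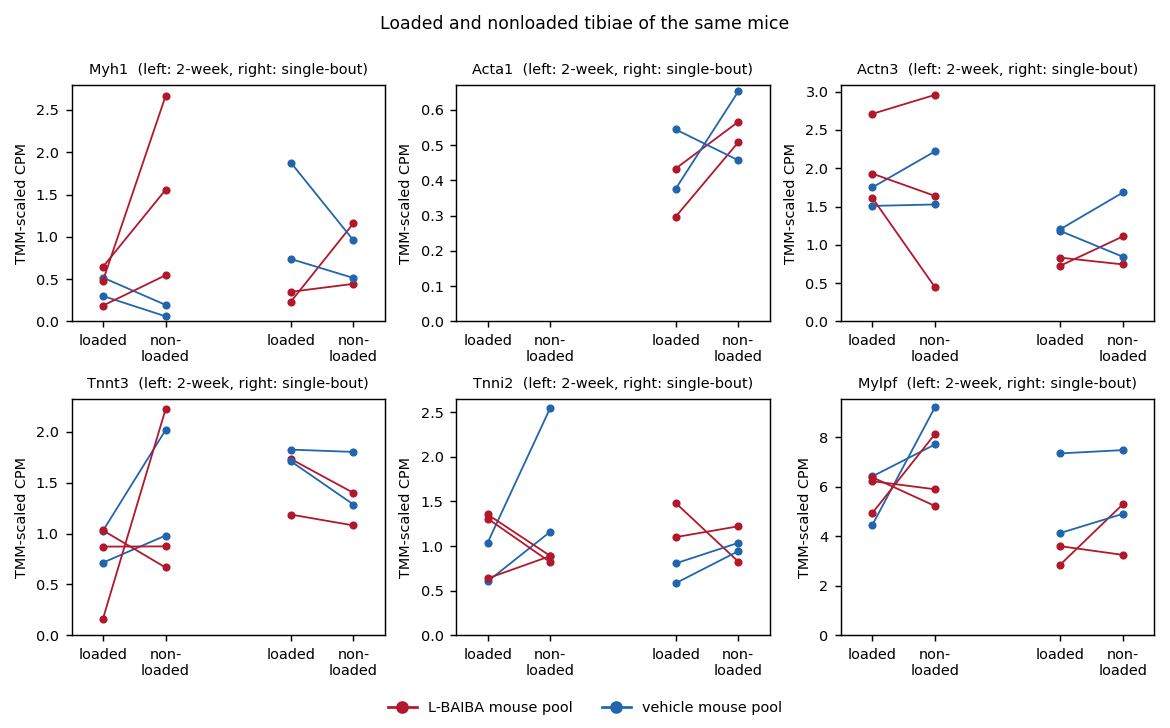
Members in the loaded and the nonloaded tibiae of the same pools of 2 mice, each line joining the legs of 1 pool. Myh1 is lower in the loaded leg of all 5 L-BAIBA-treated pools and higher in the loaded leg of all 4 vehicle-treated pools. The share of all genes with such a split was not computed.

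Between the experiments, the responses of the 5 shared members were compared as differences of log2 fold changes, single-bout minus 2-week. The loading response of Mylpf differed by 0.81 (SE 0.41, edgeR adjusted p = 1.00), and the L-BAIBA response of Myh1 by -2.18 (SE 1.12, edgeR adjusted p = 0.662, and between -3.70 and -1.59 when each library was left out). For the combination, Tnni2 differed by 1.12 (SE 0.54, edgeR adjusted p = 0.468), the only member of 5 at an unadjusted p under 0.05, which 10.7% of all genes reached. In the loading and L-BAIBA responses 0 of 5 members and 2.42% and 7.4% of all genes did.

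The members did not vary as 1 unit across libraries. Over the 12 2-week libraries, the Pearson r between pairs of members lay between -0.30 (Myh1 and Tnni2) and 0.48 (Tnni2 and Mylpf). Over the 11 single-bout libraries, Mylpf and Actn3 had an r of 0.87, whereas in the 2-week libraries it was 0.08. Tnni2 had a negative r with every other member in the single-bout libraries, between -0.57 (Actn3) and -0.22 (Acta1). Many of these rest on few counts, and the points share library and depth.

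The correlation of single members with marker lists was also described. Mylpf varied with the mean log2 level of the red cell genes, with an r of 0.95 over the single-bout and 0.54 over the 2-week libraries. For Actn3 it was 0.77 over the single-bout and -0.39 over the 2-week libraries. Single-bout red cell genes summed to 1500 to 2474 CPM in L-BAIBA-treated loaded and 1718 to 5234 CPM in vehicle-treated loaded tibiae. With the neutrophil genes Mylpf had an r of 0.81 in the 2-week but -0.59 in the single-bout libraries. Myh1 had an r of 0.85 and 0.81 with Myh8, the perinatal myosin heavy chain, which averaged 0.632 and 0.726 CPM. With the mean of the 35 and 36 other fast fibre genes listed, Myh1 had an r of 0.55 and 0.70, Tnni2 -0.69 and -0.45, and Mylpf -0.42 and -0.04, in the 2-week and single-bout libraries.

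**Figure D5:**
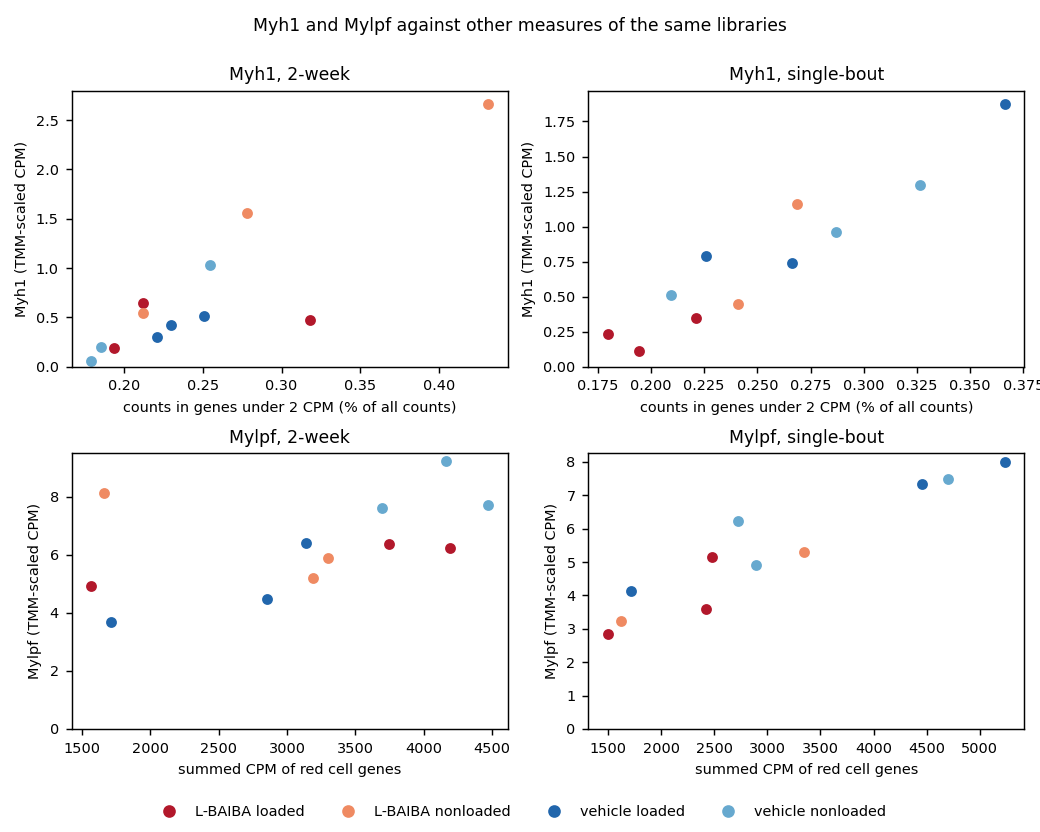
Myh1 against the share of counts in genes under 2 CPM (top) and Mylpf against the summed CPM of red cell genes (bottom), 1 point per library, colored by group. Myh1 is highest where that share is highest in both experiments, and in the single-bout libraries Mylpf lies between 2.86 and 8.002 CPM as red cell genes go between 1500 and 5234 CPM.

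Genes with a pattern like the mean of the members were ranked among 13764 genes by the smaller r of the 2 experiments. The first were Nae1, a subunit of the enzyme that activates NEDD8 (r of 0.81 and 0.79 over the 2-week and single-bout libraries), Tigd3 (0.78 and 0.77), Mmaa, which serves cobalamin metabolism (0.76 and 0.76), Ints8, an Integrator subunit (0.74 and 0.82), and Nbn, which acts in DNA break repair (0.84 and 0.74). Fbxo8, Ehf, Brms1l, Hyls1 and Snhg4 completed the first 10, with a smaller r between 0.70 and 0.74. None of the 10 is a sarcomere gene. For single members, a ranking chosen after the values were seen put Blvrb and Car1, a reductase and a carbonic anhydrase of red cells, among the first 4 for Mylpf, with an r of 0.90 and 0.95 for Blvrb and 0.89 and 0.97 for Car1. For Myh1 the first of 15187 genes were Cntnap5b (0.94 and 0.93) and Unc93a (0.93 and 0.93). Sfi1 (0.92 and 0.97) and Dcc (0.92 and 0.95) came further down the same ranking.

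Other muscle genes were listed in part. Of 59 further fast and general fibre genes, 35 were listed in the 2-week table and 36 in the single-bout one, and 11 and 17 of these averaged under 2 CPM. Their sum was set by Tpm1 (553 and 349 CPM) and Tpm2 (63.0 and 37.9 CPM), tropomyosins that many other cells also use, and by Myom1 (102 and 101 CPM), which ties thick filaments together in the M-band. Of 12 slow fibre genes, 10 and 11 were listed, led by Tpm3 (370 and 474 CPM) and Atp2a2 (251 and 245 CPM), again not restricted to muscle, and then Tnnt1, slow troponin T (4.94 and 5.86 CPM). Of 18 satellite cell and myogenic regulator genes, 7 were listed in each table, led by Mef2c (440 and 428 CPM), which bone cells also use, and Cdh15 (25.7 and 14.7 CPM), followed by Myl4 (9.39 CPM) in the 2-week libraries and Des (4.73 CPM) in the single-bout libraries. Of 13 heart-restricted genes, 7 and 5 were listed, led by Myl4 (9.39 and 4.24 CPM), Ryr2 (3.18 and 3.08 CPM) and Tbx20 (2.05 and 1.49 CPM), and Myl4 is also in the satellite cell list.

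No gene of these lists had an adjusted p under 0.05 by edgeR in any comparison within an experiment. In 2-week vehicle-treated loaded against vehicle-treated nonloaded tibiae, 26 of 35 other fast fibre genes had a positive log2 fold change, with a median of 0.35 against 0.01 over all genes, 5 positive and 1 negative at an unadjusted p under 0.05, which 10.2% of all genes reached. The fibre members had a median of -0.39 in the same comparison. The genes of a list share their libraries and are not independent. The other fast fibre genes summed to 940, 1283 and 780 CPM in vehicle-treated loaded tibiae. This overlapped the 839, 794 and 809 CPM of vehicle-treated nonloaded tibiae. L-BAIBA-treated nonloaded tibiae had 1242, 901 and 866 CPM. In 2-week L-BAIBA-treated nonloaded against vehicle-treated nonloaded tibiae, 31 of 35 were positive, with a median of 0.42 against -0.0046 over all genes, 4 positive and 0 negative at an unadjusted p under 0.05 (9.23% of all genes), and the members' median was -0.10. In single-bout L-BAIBA-treated loaded against vehicle-treated loaded tibiae, 13 of 36 were positive, with a median of -0.11 against -0.04 over all genes, 0 positive and 4 negative at an unadjusted p under 0.05 (18.9% of all genes). The slow fibre genes had medians of 0.32, 0.05 and 0.0025 in these 3 comparisons.

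Smooth muscle and osteocyte genes lay in the same direction as the other fast fibre genes in the 2-week comparisons, and red cell and neutrophil genes did not. All 11 smooth muscle genes, led by Acta2 (84.6 CPM), Smtn (84.2 CPM) and Myh11 (82.7 CPM), and all 10 osteocyte genes had a positive log2 fold change in vehicle-treated loaded against vehicle-treated nonloaded tibiae, with medians of 0.75 and 0.78. In L-BAIBA-treated nonloaded against vehicle-treated nonloaded tibiae, 10 of 11 and 10 of 10 were positive, with medians of 0.50 and 0.70. The smooth muscle genes summed to 589, 187 and 176 CPM in L-BAIBA-treated nonloaded tibiae, against 243, 211 and 209 CPM in vehicle-treated nonloaded tibiae, so that only L-BAIBA nonloaded 1 was above the vehicle-treated libraries. In the single-bout libraries the leading genes were Smtn (63.5 CPM), Acta2 (35.6 CPM) and Myh11 (33.5 CPM). After 2 weeks, satellite cell and myogenic regulator genes summed to 460 to 693 CPM in vehicle-treated loaded tibiae. They summed to 521 to 617 CPM in L-BAIBA-treated nonloaded and 350 to 420 CPM in vehicle-treated nonloaded tibiae. Tendon genes, led by Tnc and Egr1, had 4527 to 7627, 4780 to 6188 and 3916 to 4417 CPM in the same order. Neither list overlapped with the vehicle-treated nonloaded tibiae. The median 2-week sum of red cell genes was 2856 CPM in vehicle-treated loaded and 3187 CPM in L-BAIBA-treated nonloaded tibiae, against 4161 CPM in vehicle-treated nonloaded tibiae. For neutrophil genes it was 18101 and 22020 CPM, against 26651 CPM. Osteoblast and cartilage genes also had lower median sums in both of these groups. B-lineage precursor genes had median sums of 840 and 512 CPM, against 515 CPM. For adipocyte genes they were 1314 and 856 CPM, against 684 CPM. Both of these lists overlapped between the groups. The part of all these cells in the fast fibre values was not tested.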

How the data were processed

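The deposited gene counts were made by the authors from stranded, paired-end, poly(A)-selected reads with STAR 2.5.2b on mm10 and featureCounts (Subread 1.5.1), per the submitters' processing notes, keeping uniquely mapped fragments; the edgeR version is not given in the sources used here. Each deposited table holds the genes that pass 0.5 CPM in 3 or more libraries. They also hold the authors' own log2 fold changes, p-values and FDR, which were not used. Exon lengths deposited with the counts gave levels per kilobase.

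Counts were tested with edgeR 4.0.16 (R 4.3.3), TMM scaling, a minimum of 0.5 CPM in 4 libraries, all groups of an experiment in 1 quasi-likelihood fit without a block, and Benjamini-Hochberg adjustment over all genes tested at 0.05. Log2 CPM used a prior count of 2. Alternatives were DESeq2 1.42.0, edgeR's likelihood ratio test, limma 3.58.1 (voom), other scalings and filters, the mouse pool as a block, and each library left out in turn. Intervals are 95% (exact Poisson for CPM, the fit for fold changes). The procedure was tested on simulated data with known changes. These were placed only in genes above the mean level of every member but Mylpf, so power for the other members was not tested. Loaded and nonloaded libraries with the same mice in their titles were taken as pairs; the consensus correlation within pools was 0.44 for 2 weeks and 0.41 for a single bout. Library p-values rest on pools of 2 mice.

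The members and gene lists were chosen with earlier results of these data known. All listed members are named, with the 10 genes most like their mean (smaller Pearson r of the 2 experiments) and the 3 highest genes of each muscle gene list. The red cell list was shortened by 1 gene that is not reported here.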

Additional observations from a re-analysis of the deposited data

Results flagged for a closer look

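Between the legs of the same mice, Myh1 went in opposite directions with and without L-BAIBA in both experiments. In the 2-week experiment the loaded minus nonloaded difference in log2 CPM was -2.17, -1.05 and -1.10 in the 3 L-BAIBA-treated pools, against 1.10 and 0.95 in the 2 vehicle-treated pools, so that the mean of the L-BAIBA-treated pools was -2.47 relative to the vehicle-treated pools. In the single-bout experiment it was -2.03 and -0.29 in the L-BAIBA-treated pools, against 0.92 and 0.47 in the vehicle-treated pools, a difference of -1.86. By edgeR's quasi-likelihood test over all libraries, the interaction of loading and L-BAIBA for Myh1 had an adjusted p of 0.725 after 2 weeks and 1.00 after a single bout. The share of counts in genes under 2 CPM lay in the same direction as Myh1 between the legs of all 9 pools, and its part was not tested. The counts behind these values were 1 to 18 (2-week) and 4 to 39 (single-bout). The L-BAIBA-treated pool at -0.29 had nearly equal counts, 13 loaded and 14 nonloaded. The vehicle-treated pools at 1.10 and 0.95 rested on 5 against 1 and 8 against 3 counts. With so few pools, the share of all genes with such a split is needed to read it, and it was not computed.

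In vehicle-treated mice, the loaded minus nonloaded difference of Tnnt3 was 0.02 and 0.39 on the log2 scale in the single-bout pools. In the 2-week pools it was -0.88 and -0.39, which sets the single-bout pools 0.84 above the 2-week pools. The pool at 0.02 had nearly equal legs, at 1.82 CPM loaded and 1.80 CPM nonloaded (34 and 47 counts). Only the other single-bout pool was thus clearly above 0. For this split, too, the share of all genes was not computed. By edgeR over all libraries the difference of the loading response was 0.38 (SE 0.67, adjusted p = 1.00).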

How the results depend on the processing

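In 14 of the 15 comparisons the count of members past an adjusted p of 0.05 was 0 under every alternative run. In single-bout L-BAIBA-treated loaded against vehicle-treated loaded tibiae it was 1 with DESeq2 and 1 with edgeR's likelihood ratio test, Myh1 in both, and 0 under all others; the cause was not tested. These were 2 of the 21 alternatives run for that comparison. Over all 15 comparisons there were 367 pairs of comparison and alternative, each covering all members tested. The smallest adjusted p was 0.0198, by edgeR's likelihood ratio test. Leaving out each of the 23 libraries gave counts from 0 to 0. Of 81 member fold changes, 43 kept their sign under every alternative. The highest over lowest summed level ran between 1.77 and 2.22 in the 2-week and between 1.60 and 1.84 in the single-bout libraries when each library was left out. Without both libraries of the shallowest pool, chosen after seeing the data, the 2-week L-BAIBA fold change of Myh1 was 1.40 (unadjusted p = 0.164 by edgeR). Leaving out 1 library moved it to between 1.37 and 3.52. With a CPM over 1 in 6 libraries, Myh1 was not tested in either experiment, nor were Tnnt3 in the 2-week and Acta1 in the single-bout libraries.

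With the mouse pool as a replicate block, random in limma voom or fixed in edgeR, the count of members past the threshold was 0 in each comparison where the block could be used. The 2-week loading fold change of Mylpf was -0.77 with the random block (limma adjusted p = 0.158), -0.81 in limma voom with no block (adjusted p = 0.437) and -0.65 with the fixed block (edgeR adjusted p = 0.395), in which the pools with only 1 leg carry no weight. The pairing changed no call.

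Depth limits the low members most: Myh1 had as few as 1 count in a library, and Acta1 varied by less than counting error.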
